A study of Homo sapiens with 6 samples.

Results

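Fatty acid synthesis and desaturation are covered here by 10 genes, SREBF1, ACLY, ACACA, ACACB, FASN, SCD, ELOVL6, FADS1, FADS2 and ACSL1. They were looked up by GENCODE symbol among the 28563 Ensembl genes of the deposited expression table, and all 10 were found. RNA-seq was done on cells labelled HepG2, an established human liver cancer line, treated for 24 h with polydatin (PD) or with its solvent DMSO. PD is a plant stilbene glucoside, which the labels give at 336 µM and the paper at a somewhat lower dose. Each group had 3 dishes with 1 library per dish. All 6 dishes were labelled as the same line, and no genetic change is named for any of them. Expression is given as FPKM, the fragments counted on a gene per kilobase of its length, scaled to the fragments of its library. For the 10 genes this length is close to that of all annotated exons together, not that of the transcript in use. Levels can therefore be compared between genes only roughly.

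De novo fatty acid synthesis turns citrate into palmitate in the cytosol. ACLY cleaves citrate to acetyl-CoA, the carboxylases encoded by ACACA and ACACB make malonyl-CoA from it, and FASN joins these units into palmitate. ELOVL6 lengthens palmitate, SCD puts the first double bond into saturated chains, FADS1 and FADS2 act on polyunsaturated chains, and ACSL1 couples fatty acids to coenzyme A. SREBF1 encodes the SREBP-1 transcription factors, which are released from the endoplasmic reticulum membrane by proteolysis and activate most of these genes. In the liver the pathway is known for its response to feeding and insulin, and in liver cancer it is often highly active.

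The libraries held 16308476 to 18071632 fragments. PD was compared with DMSO by limma on log2(FPKM + 1) over the 14400 genes whose mean FPKM was 0.5 or more, with Benjamini-Hochberg adjustment, and a gene was called at an adjusted p of at most 0.05. Fold changes on this scale are smaller than the ratio of FPKM for genes of low level. A differentially expressed gene (DEG) had in addition a change of at least 2-fold. Of 20 marker genes of hepatocytes and HepG2 cells, 10 were analysed, of which all but CPS1 and RBP4 stayed below 1 FPKM throughout. CPS1 had 222 to 228 FPKM in DMSO and 106 to 111 in PD, and RBP4 had 0.323 to 0.479 and 1.06 to 1.73. The highest value of the other 8 was 0.172 FPKM, and the liver factor HNF4A stayed at or below 0.106 FPKM. The labelled cell type therefore lacked most of its defining transcripts in these libraries, and the name HepG2 is that of the labels. Epithelial markers summed to 103 to 109 FPKM in DMSO and 126 to 132 in PD, with KRT8 at 48.3 to 52.3 and 65.7 to 70.5. CLDN4 was also higher in PD, at 7.68 to 7.89 and 11.6 to 12.2 FPKM. KRT18 (45.6 to 48.1 and 47.1 to 48.5) and EPCAM (0.882 to 1.54 and 0.883 to 1.10) overlapped between the groups. CDH1 was near 0 and lower in PD, at 0.0946 to 0.145 and 0.0269 to 0.0462 FPKM, so the markers did not move together. Fibroblast markers summed to 24.6 to 26.3 FPKM in DMSO and 33.5 to 35.1 in PD, most of it VIM. Endothelial and adipocyte markers summed to at most 0.0779 FPKM, and those of leukocytes to 0.374 to 0.518 in DMSO and 0.498 to 0.633 in PD. The part of these shifts in the results that follow was not tested, and fewer cells of a kind cannot be told apart from less RNA per cell.

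All 10 genes passed the minimum of 0.5 FPKM, and 9 were called as higher in PD while none was called as lower. Of all tested genes, 31.9% were called as higher and 58.1% in either direction. For every one of the 10, the lowest PD library exceeded the highest DMSO library, which held for 35.6% of tested genes, and 65.4% did not overlap in either direction. The median log2 fold change of the 10 was 0.52, beside 0.01 over all tested genes, and the range was 0.15 to 1.09. SCD reached 2-fold and was a DEG, as were 2.04% of tested genes in this direction and 3.61% in either. With a pseudocount of 0.1 there were 3 such DEGs (background 4.85%), as there were with limma voom on fragments worked back from FPKM (background 6.72%), SCD, ACACB and ACSL1 in both. Voom called all 10 genes as higher, beside 34.4% of the genes it tested. The rises were thus shared in direction but spread widely in size.

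In DMSO, SCD had the highest FPKM of the 10 genes, followed by ACLY, FADS1 and FASN, whose ranges over libraries overlapped from each gene to the next. SREBF1, ACACA, FADS2, ACSL1, ACACB and ELOVL6 came next in this order, and no range overlapped that of its neighbour. In PD, FASN stood apart above ACLY and FADS1, whose ranges still overlapped, and ACSL1 stood above FADS2. FADS1 had 9916 to 15284 fragments per library and ACLY 5065 to 7866, so this order also rests on the gene lengths used. The summed FPKM of the 10 genes was 542 ± 16.0 in DMSO and 987 ± 29.5 in PD (SD, n = 3). SCD made up 53.8% ± 1.44 of this sum in DMSO and 63.1% ± 0.546 in PD (SD, n = 3), and 74.5% of the increase in the sum was that of SCD. Together the 10 genes took 0.365% to 0.385% of the fragments of a DMSO library and 0.631% to 0.667% of those of a PD library.

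**Figure D1:**
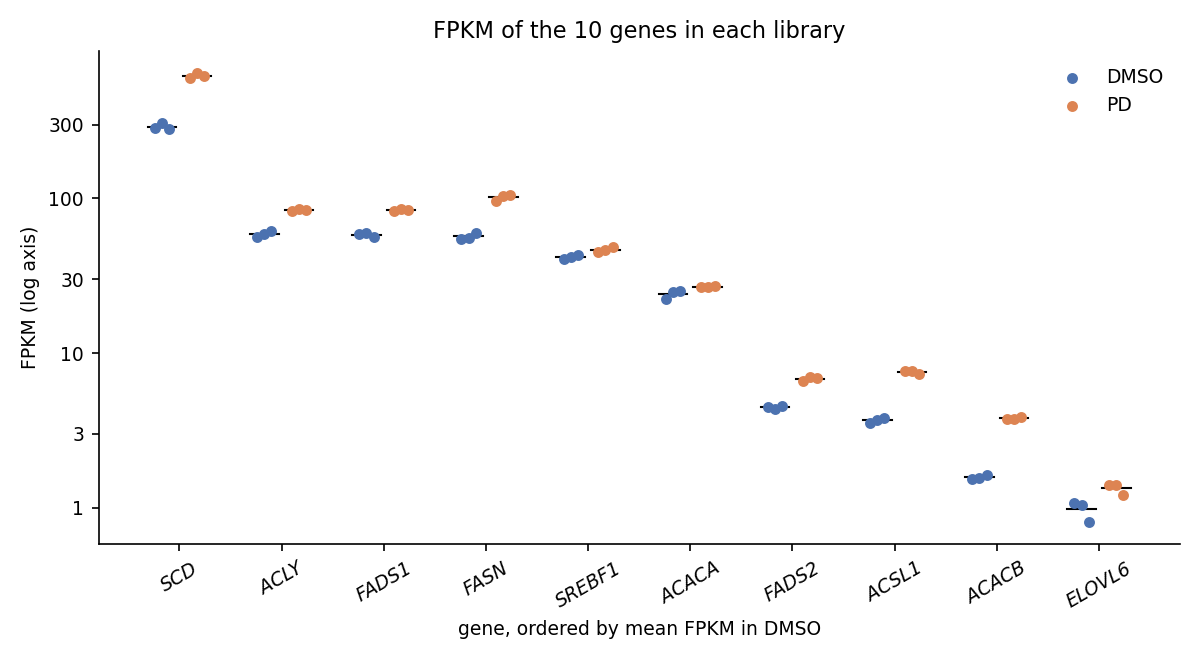
FPKM (log axis) of the 10 genes in each of 3 DMSO (blue) and 3 PD (orange) libraries, with a black line at the mean of each group and genes ordered by their mean in DMSO. Every orange point lies above all blue points of its gene, with the widest gap in FPKM for SCD and narrow gaps for SREBF1, ACACA and ELOVL6.

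SREBF1, the transcription factor gene of the pathway, lies on chromosome 17 of GRCh38 from 17810399 to 17837002. It had 40.7, 41.5 and 43.0 FPKM in DMSO replicates 1, 2 and 3, and 44.9, 46.7 and 48.6 FPKM in PD replicates 1, 2 and 3. The groups did not overlap, but the gap between the highest DMSO and the lowest PD library was 1.92 FPKM. The log2 fold change of SREBF1 was 0.16 (95% interval 0.07 to 0.25, adjusted p = 0.011, limma), and it stayed called under every alternative tried, with an adjusted p of 0.0012 to 0.047. An exon of RAI1 on the opposite strand overlaps SREBF1, and RAI1 had a mean of 15.2 FPKM in DMSO and 11.1 in PD. The values sum all SREBF1 transcripts, so the SREBP-1a and SREBP-1c forms were not separated.

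SREBF2, which encodes the sterol-directed SREBP-2, had 31.8 ± 1.39 FPKM in DMSO and 32.9 ± 0.228 in PD (SD, n = 3). Its log2 fold change was 0.05 (95% interval -0.04 to 0.14, adjusted p = 0.32, limma), and it was not called. The ratio of SREBF1 to SREBF2 within a library was 1.34, 1.25 and 1.35 in DMSO and 1.37, 1.42 and 1.47 in PD. All PD ratios were above all DMSO ratios, a log2 difference of 0.11 with an exact two-sided permutation p of 0.10, the smallest that 3 against 3 can give.

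ACLY, which supplies cytosolic acetyl-CoA from citrate, lies on chromosome 17 from 41866917 to 41930542. It had 56.2, 58.5 and 61.6 FPKM in DMSO and 83.2, 86.0 and 84.8 FPKM in PD. The groups were 21.6 FPKM apart at their nearest libraries. ACLY rose by a log2 fold change of 0.52 (95% interval 0.43 to 0.61, adjusted p = 3.5e-05, limma), which is 1.44-fold in mean FPKM.

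The carboxylases differed in level and in change. ACACA encodes the cytosolic enzyme of fatty acid synthesis and lies on chromosome 17 from 37084992 to 37406836. It had 22.4, 24.8 and 25.2 FPKM in DMSO and 26.6, 26.8 and 27.2 FPKM in PD, so that the groups were separated by 1.47 FPKM. Its log2 fold change was 0.15 (95% interval 0.04 to 0.26, adjusted p = 0.030, limma). This call was lost with median-of-ratios scaling (adjusted p = 0.078), with upper quartile scaling (0.11) and without a filter on FPKM (0.060). It was also lost without DMSO replicate 1 (0.060), PD replicate 1 (0.062), PD replicate 2 (0.072) or PD replicate 3 (0.087), so the rise of ACACA is uncertain. ACACB encodes the isoform at the outer mitochondrial membrane, whose malonyl-CoA restrains fatty acid import for oxidation, and lies on chromosome 12 from 109116587 to 109268226. It had 1.54, 1.56 and 1.62 FPKM in DMSO and 3.74, 3.77 and 3.84 FPKM in PD. All PD values of ACACB were over 2-fold above all DMSO values in FPKM, and the ratio of means was 2.41. On the FPKM + 1 scale its log2 fold change was 0.90 (95% interval 0.76 to 1.03, adjusted p = 1.7e-05, limma), and it was 1.27 by voom on 379 to 980 fragments per library. The ratio of ACACB to ACACA was 0.0685, 0.0628 and 0.0643 in DMSO and 0.140, 0.141 and 0.141 in PD. Its log2 difference was 1.11, with an exact two-sided permutation p of 0.10, again the smallest possible. ACACA nevertheless remained the more abundant transcript in every library.

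FASN, the multifunctional synthase that builds palmitate, lies on chromosome 17 from 82078338 to 82098294. It had 54.9, 55.8 and 59.9 FPKM in DMSO and 96.4, 104 and 106 FPKM in PD. The lowest PD library exceeded the highest DMSO library by 36.4 FPKM. The log2 fold change of FASN was 0.83 (95% interval 0.72 to 0.95, adjusted p = 1.3e-05, limma), and the ratio of mean FPKM was 1.80. No exon of another annotated gene overlaps FASN, ACACA, ACACB or SCD.

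SCD, the delta-9 desaturase that makes oleate and palmitoleate, lies on chromosome 10 from 100347233 to 100364826. It had 284, 308 and 282 FPKM in DMSO and 603, 646 and 619 FPKM in PD. The PD libraries were 294 FPKM or more above every DMSO library, and 25840 to 60722 fragments stood behind each value. SCD alone took 0.151% to 0.165% of all fragments of a DMSO library and 0.323% to 0.346% of those of a PD library. Its log2 fold change was 1.09 (95% interval 0.99 to 1.20, adjusted p = 3.4e-06, limma), and it kept at least 2-fold under every alternative tried, with log2 values from 1.05 to 1.14.

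FADS1, the delta-5 desaturase, and FADS2, the delta-6 desaturase, lie on opposite strands of chromosome 11, from 61799627 to 61829318 and from 61792980 to 61867354. FADS1 had 58.7, 59.4 and 56.7 FPKM in DMSO and 82.7, 85.2 and 84.8 FPKM in PD. FADS2 was lower in level, with 4.45, 4.31 and 4.57 FPKM in DMSO and 6.60, 6.96 and 6.86 FPKM in PD. Both rose by a log2 fold change of 0.52 (adjusted p = 1.3e-05 for FADS1 and 8.3e-05 for FADS2, limma). Voom on fragments gave 0.53 for FADS1 and 0.62 for FADS2. The ratio of FADS2 to FADS1 was 0.0758, 0.0726 and 0.0807 in DMSO and 0.0799, 0.0818 and 0.0809 in PD. These ratios overlapped between the groups, and their log2 difference was 0.08 with an exact two-sided permutation p of 0.20. Annotated exons of the 2 genes overlap each other, and those of FADS2 also overlap FEN1 on the same strand, which had a mean of 70.4 FPKM in DMSO and 96.9 in PD. The part of FADS1 and FEN1 fragments in the FADS2 values was not tested.

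ELOVL6, the elongase that takes palmitate to stearate, was the lowest of the 10 genes and lies on chromosome 4 from 110045846 to 110199199. It had 1.07, 1.05 and 0.809 FPKM in DMSO and 1.41, 1.40 and 1.20 FPKM in PD, from 101 to 186 fragments per library. The groups did not overlap, but DMSO replicate 3 and PD replicate 3 lay below the other libraries of their groups. ELOVL6 was not called, with a log2 fold change of 0.24 (95% interval 0.03 to 0.46, adjusted p = 0.054, limma). Voom on fragments called it as higher, with 0.46 and an adjusted p of 0.0053.

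ACSL1, the acyl-CoA synthetase typical of liver and fat, lies on chromosome 4 from 184755595 to 184826818. It had 3.51, 3.68 and 3.81 FPKM in DMSO and 7.65, 7.64 and 7.31 FPKM in PD. The PD libraries lay 3.49 FPKM or more above those of DMSO, and the ratio of means was 2.05. The log2 fold change was 0.87 (95% interval 0.75 to 0.99, adjusted p = 1.2e-05, limma) and was 1.04 by voom. Exons of ACSL1 overlap 2 annotated genes on the opposite strand, and ACLY and ELOVL6 each overlap 1, none of which is among the genes analysed.

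**Figure D2:**
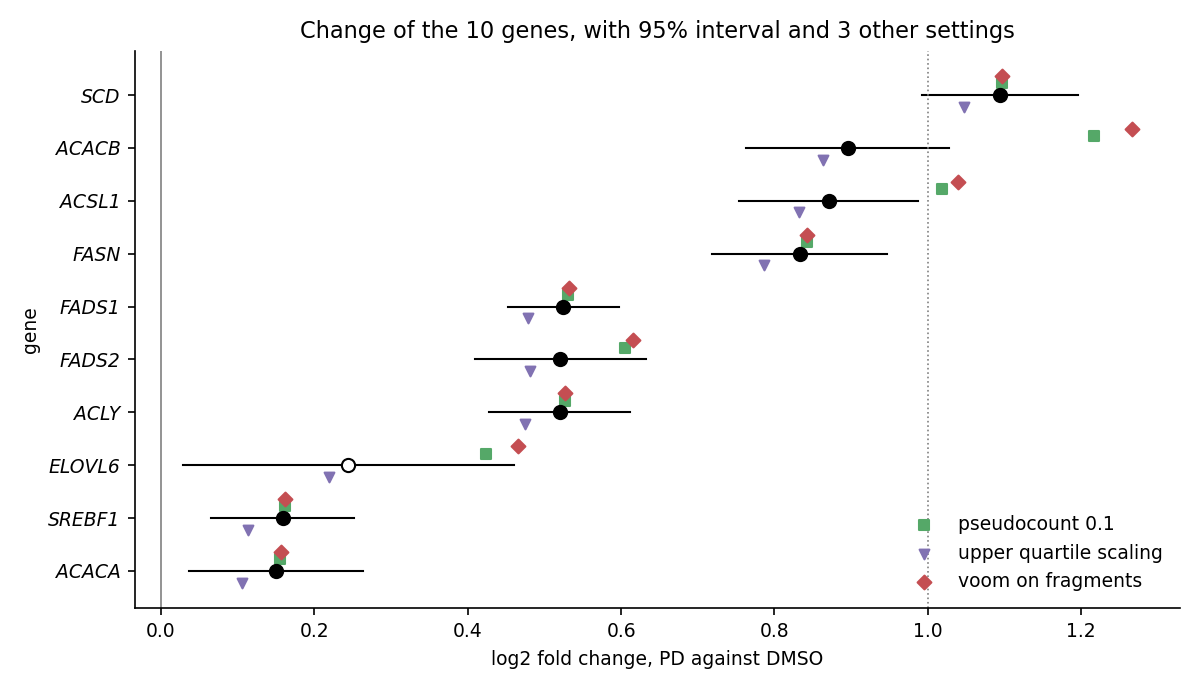
Log2 fold change of each gene in PD against DMSO, on the log2(FPKM + 1) scale, as a circle (filled when the adjusted p was at most 0.05) with its 95% interval, beside the values with a pseudocount of 0.1 (square), with upper quartile scaling (triangle) and by voom on fragments (diamond). ACACB and ACSL1 pass the dotted line at 2-fold with the pseudocount of 0.1 and with voom, SCD passes it in all 4, and ACACA and SREBF1 stay near 0.1 to 0.2.

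The sequence just upstream of the annotated starts was taken from RefSeq (GRCh38.p14), where 9 of the 10 genes have an entry and several have more than 1 start. In 250 bases before each start, both strands were searched for the sterol regulatory element TCACCCCAC, its looser form TCACNCCAC, which includes the former, the E-box CACGTG, the NF-Y box CCAAT and the GC box GGGCGG. SREBP acts at sterol regulatory elements and E-boxes, usually with NF-Y or Sp1, which bind the CCAAT and GC boxes. The GC box was present before at least 1 start of all 9 genes, and 46.2% of all 27305 genes in the table hold it. The NF-Y box was present in 5 (ACLY, ACACA, ACACB, SCD and ACSL1), beside 37.0% of all genes. In ACSL1 all 5 bases of this match lie in annotated exons. A gene with several starts has more chances to hold a motif, and ACSL1 has 5, so these counts and shares are not directly comparable. SREBF1, SCD, ELOVL6 and FADS1, with 1 start each, all hold a GC box, and of them only SCD holds an NF-Y box. Whether there is an excess was not tested. Among single windows of all genes, 42.6% hold a GC box and 32.0% an NF-Y box. The sterol regulatory element in these letters was found before 1 start of ACSL1, where 2 of the 9 bases of the match lie in annotated exons, and 0.450% of all genes hold it, or 1.09% in its looser form. The E-box was in none of the 9 and in 7.73% of all genes. A match is only a description of letters, and these windows say nothing of binding or of which start the cells used.

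The windows below are shown because SCD had the largest rise, ACLY an intermediate rise, and ACACA and ACACB the contrast between the carboxylases. None of them overlaps a GENCODE exon. Capitals mark NF-Y and GC boxes on either strand, each line reads 5′ to 3′ along the gene, and its last base is next to the start.
SCD, chr10:100346983-100347232, plus strand: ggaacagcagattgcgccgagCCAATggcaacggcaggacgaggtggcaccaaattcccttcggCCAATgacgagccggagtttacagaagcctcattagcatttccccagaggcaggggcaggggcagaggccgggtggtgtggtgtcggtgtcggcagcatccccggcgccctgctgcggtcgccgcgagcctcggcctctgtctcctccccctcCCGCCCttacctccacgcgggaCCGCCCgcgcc
ACLY, chr17:41919023-41919272, minus strand: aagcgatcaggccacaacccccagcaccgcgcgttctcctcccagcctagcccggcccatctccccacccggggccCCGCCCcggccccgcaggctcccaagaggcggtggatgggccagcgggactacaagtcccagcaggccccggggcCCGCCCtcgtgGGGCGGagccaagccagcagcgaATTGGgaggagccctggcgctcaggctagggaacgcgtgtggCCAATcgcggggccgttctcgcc
ACACB, upstream start, chr12:109116337-109116586, plus strand: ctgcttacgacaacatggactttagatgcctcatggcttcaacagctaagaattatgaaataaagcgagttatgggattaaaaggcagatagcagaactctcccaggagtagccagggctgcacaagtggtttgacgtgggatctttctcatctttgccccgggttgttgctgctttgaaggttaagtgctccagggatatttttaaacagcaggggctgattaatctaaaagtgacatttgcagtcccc
ACACB, downstream start, chr12:109154429-109154678, plus strand: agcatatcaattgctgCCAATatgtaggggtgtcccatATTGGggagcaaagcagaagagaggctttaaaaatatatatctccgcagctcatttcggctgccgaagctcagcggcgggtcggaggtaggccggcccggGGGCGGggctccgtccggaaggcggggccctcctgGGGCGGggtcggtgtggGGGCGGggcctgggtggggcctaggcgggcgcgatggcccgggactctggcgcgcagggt
ACACA, downstream start, chr17:37299768-37300017, minus strand: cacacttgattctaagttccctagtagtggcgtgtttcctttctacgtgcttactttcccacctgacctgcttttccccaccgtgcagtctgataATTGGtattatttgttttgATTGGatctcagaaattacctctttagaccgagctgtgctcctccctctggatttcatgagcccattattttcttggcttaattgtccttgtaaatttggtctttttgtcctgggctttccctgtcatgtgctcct
SCD has 2 NF-Y and 2 GC boxes here, and ACLY has 2 NF-Y and 3 GC boxes. ACACB has none of the motifs before its upstream start, but 2 NF-Y and 3 GC boxes before its downstream start. The ACACA window has 2 NF-Y boxes and no GC box. The other ACACA starts, whose windows overlap exons in part and are not printed, have 5 GC boxes without an NF-Y box and 6 GC boxes with 1 NF-Y box. Some of these GC boxes share bases with the next, so they are not all separate. The GC content of these windows is 81.6% and 78.0%, and both carboxylase genes hold both motifs. The GC content is 68.0% for SCD, 73.6% for ACLY, 45.2% and 66.4% for ACACB and 43.6% for ACACA. Gene level FPKM do not separate the starts, so neither ACACB start can be tied to the rise of that gene. The RefSeq starts of FADS1 and FADS2, whose log2 fold changes were alike in size, are 599 and 800 bases apart.

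Related genes were taken from 10 lists, and the counts read against 31.9% higher and 26.2% lower among all tested genes. Of 15 tested regulators of lipogenesis, 4 were higher and 2 lower, and their median log2 fold change was 0.05. INSIG1, which holds SREBP in the endoplasmic reticulum and is itself a known SREBP target, rose from 33.7 ± 1.92 to 106 ± 0.652 FPKM (SD, n = 3), a log2 fold change of 1.63 (adjusted p = 1.4e-06, limma). MLXIPL, the carbohydrate-responsive factor ChREBP, rose by 0.67, and SCAP, the escort of SREBP to the Golgi, by 0.51. MLX was called as lower (-0.16, adjusted p = 0.044, limma), but its libraries overlapped between the groups. MBTPS2, 1 of the proteases that release SREBP, had -0.19 (adjusted p = 0.015, limma, and 0.051 without PD replicate 2). MBTPS1, another of these proteases, went the other way, with 0.14 (adjusted p = 0.0094, limma). The LXR genes NR1H2 (0.03) and NR1H3 (0.14) were not called. Of the 9 genes for AMP-activated kinase, which phosphorylates and restrains the carboxylases, and for malonyl-CoA breakdown, 3 were higher and 2 lower, with a median of -0.10. CAMKK2, an upstream kinase, rose by 0.69 and PRKAG1, a regulatory subunit, by 0.43, while PRKAA1, a catalytic subunit, fell by 0.39. Voom on fragments called 8 of these 9, 4 in each direction, and without DMSO replicate 2 the count was 3.

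Of the genes that supply acetyl-CoA and NADPH, 8 of 10 were higher and none lower, and their median log2 fold change was 0.45. ACSS2, which makes acetyl-CoA from acetate, rose from 8.18 ± 0.245 to 25.0 ± 0.102 FPKM (SD, n = 3), by 1.50 on the log2 scale (adjusted p = 1.3e-06, limma). PGD, an NADPH source of the pentose phosphate pathway, rose by 0.80, and PC, which makes oxaloacetate from pyruvate, by 0.75. CS (-0.07) and MDH1 (-0.02) were not called, but upper quartile scaling called CS as lower (-0.11, adjusted p = 0.023, limma). In the elongation list 6 of 10 tested genes were higher and 1 was lower, with a median of 0.17. TECR, the reductase of the last step of the cycle, rose from 8.97 ± 0.186 to 18.5 ± 1.07 FPKM (SD, n = 3), by 0.97, and the elongases ELOVL7 and ELOVL3 rose by 0.80 and 0.68 from under 2 FPKM. HSD17B12, which carries out an earlier step of the same cycle, had a log2 fold change of -0.22 with an adjusted p of 0.049 (limma), and this call was lost without a filter on FPKM (0.13) and without any 1 of the 6 libraries (0.054 to 0.15). The count of 7 called genes fell to 4 without DMSO replicate 1, DMSO replicate 3, PD replicate 1 or PD replicate 2.

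Of 4 tested partners of the desaturases none was called as higher, and CYB5B, a cytochrome b5 of the outer mitochondrial membrane, fell by 0.51 on the log2 scale (adjusted p = 0.00056, limma), from 57.3 ± 5.06 to 39.9 ± 1.98 FPKM (SD, n = 3). CYB5A (0.04) and CYB5R3 (0.06), which pass electrons to the desaturases, and FADS3 (0.09) were not called. Mitochondrial fatty acid synthesis, which makes the precursor of lipoic acid, had 1 of 7 tested genes called. This was OXSM, its condensing enzyme, with a rise of 0.23, and the median of the list was 0.10.

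Downstream of synthesis, 8 of 15 tested genes of acyl-CoA handling were higher and 2 lower, at a median of 0.16 on the log2 scale. DBI, the acyl-CoA binding protein, rose by 0.95, SLC27A4, a fatty acid transport protein, by 0.91, and the thioesterase gene ACOT1 by 0.83. ACOT1 has a close paralog in ACOT2 (0.03), so that reads may be shared. SLC27A6, another transport protein, fell by 0.56 on the log2 scale. Of 18 tested genes of triglyceride synthesis and lipid droplets, 11 were higher and 2 lower, with a median of 0.24. PLIN2, a droplet coat protein, rose by 0.77, PNPLA2, the first lipase of the droplet, by 0.75, and DGAT1, which completes triglycerides, by 0.63, whereas the lipase gene MGLL fell by 0.24. The lipase gene LIPE had -0.34 (adjusted p = 0.021, limma), a call lost without a filter on FPKM (0.062) and without DMSO replicate 3 (0.055), PD replicate 1 (0.058) or PD replicate 3 (0.0502). In fatty acid oxidation 16 of 20 tested genes were higher and none lower, with a median of 0.39. ACADSB, a dehydrogenase of short and branched acyl chains, rose by 0.85, and the peroxisomal enzymes ACAA1 and HSD17B4 by 0.74 and 0.56.

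The sterol genes, the other branch of SREBP control, had 20 of 21 members higher and none lower, at a median of 0.63 on the log2 scale. The squalene synthase gene FDFT1 rose by 1.36, DHCR7, the last reductase of cholesterol synthesis, by 1.14, and SQLE, squalene epoxidase, by 1.05. Of the genes named so far from the lists, exons of SREBF2, MLX, MBTPS2, NR1H2, NR1H3, PRKAG1, PC, CS, MDH1 and TECR overlap other annotated genes. So do exons of HSD17B12, CYB5R3, SLC27A6, LIPE, CYB5B, OXSM, DGAT1, PNPLA2, ACAA1, HSD17B4 and FDFT1, and all these values are less certain.

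**Figure D3:**
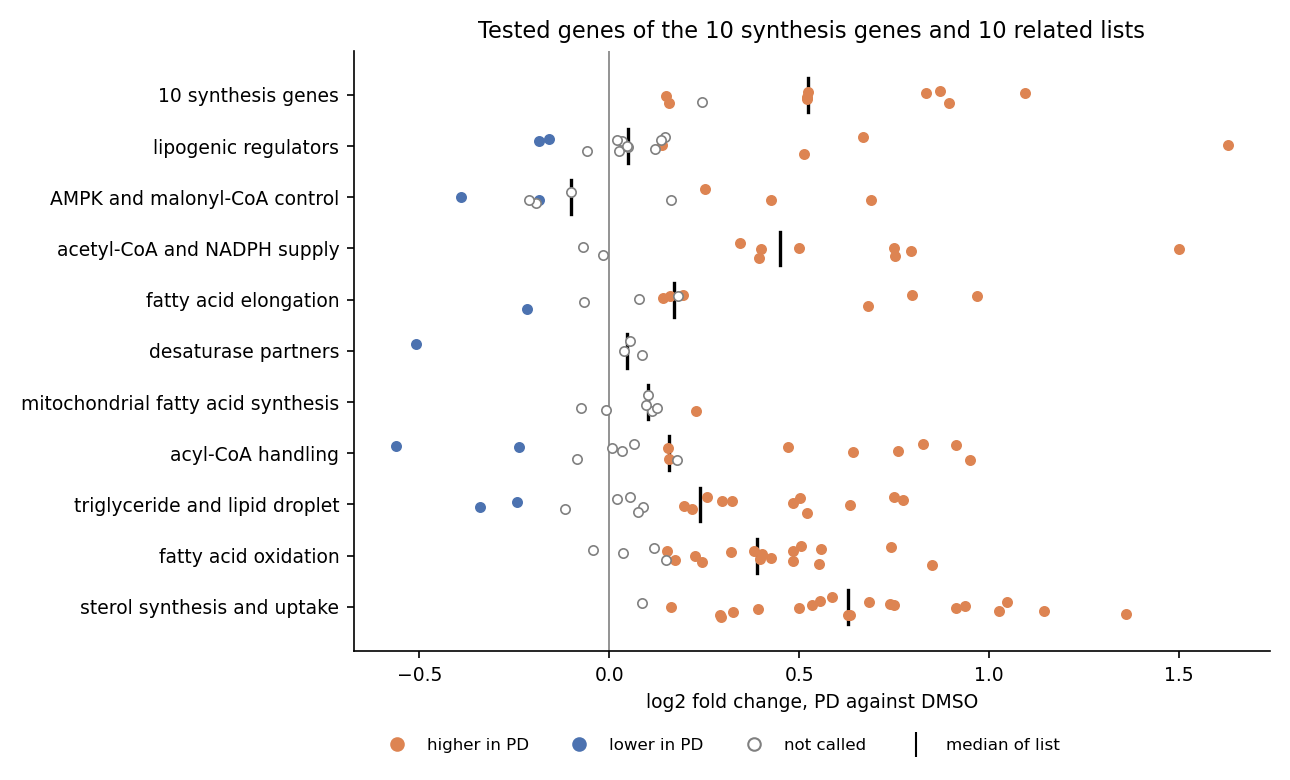
Log2 fold change (PD against DMSO, log2(FPKM + 1) scale) of each tested gene in the 10 synthesis genes and the 10 related lists, with orange for genes called as higher, blue for genes called as lower, open points for genes not called and a black bar at the median of each list. The medians run from -0.10 for AMPK and malonyl-CoA control to 0.63 for sterol synthesis and uptake, and INSIG1 (1.63) and ACSS2 (1.50) lie farthest to the right.

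**Figure D4:**
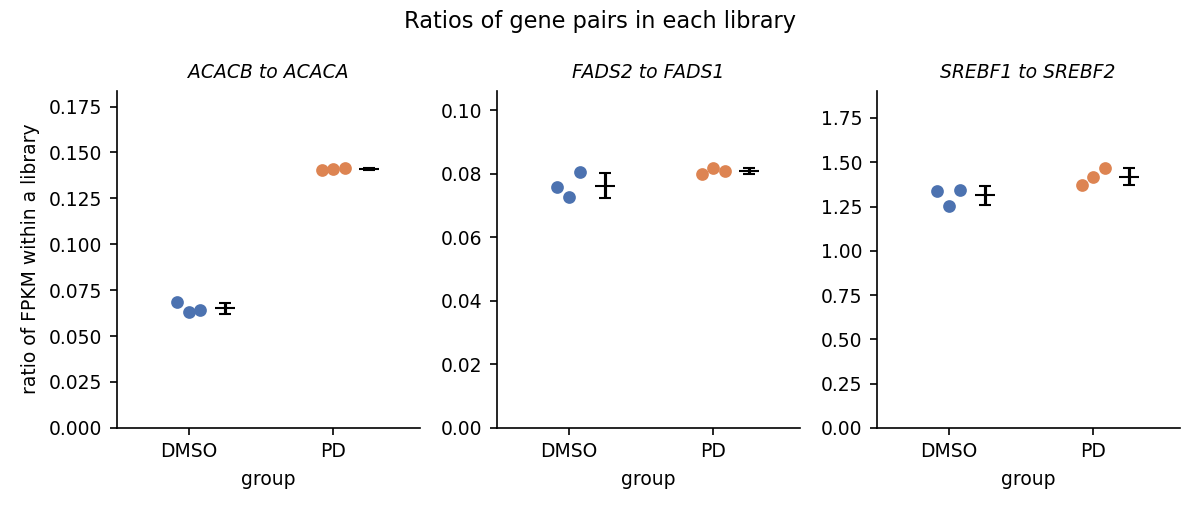
Ratio of FPKM within each library for ACACB to ACACA, FADS2 to FADS1 and SREBF1 to SREBF2, with each axis starting at 0, points for the 3 libraries of each group, and the mean with its SD beside them. The ACACB to ACACA ratio is 0.0652 in DMSO and 0.141 in PD on average, FADS2 to FADS1 overlaps between the groups, and SREBF1 to SREBF2 is slightly higher in every PD library.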

How the data were processed

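RNA from 3 PD-treated and 3 DMSO-treated dishes labelled HepG2 was analysed, and groups and replicate numbers were taken from the sample titles. Paired-end reads of poly(A) RNA were placed on hg38 by HISAT2 and assigned to genes by HTSeq (version 0.6.0 per the labels), and the authors deposited FPKM for 28563 genes. The annotation release and the strand setting of the counting are not given in the sources used here, so genes with overlapping exons are reported as uncertain. All value columns were assigned to samples.

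The test was planned in the form that fits FPKM, moderated linear models (limma 3.58.1, R 4.3.3) with a variance trend on log2(FPKM + 1), without covariates, for the 14400 genes whose mean FPKM was 0.5 or more. Symbols, coordinates and exons came from GENCODE release 44, and 28161 genes had a symbol. Each gene has FPKM in fixed steps, 1 step per fragment, so whole fragments were worked back for 28563 genes within a tolerance of 0.0001. The library totals follow from the steps and give the depth. Intervals cover the spread between libraries in limma's model. Exact permutation tests used scipy 1.17.1.

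The alternatives were a pseudocount of 0.1, no filter, a replicate block, median-of-ratios and upper quartile scaling, limma voom on genes with at least 10 fragments in 3 or more libraries, and leaving out each library. The 10 genes and the lists were chosen with earlier results of these data known. From each list, the 3 called genes with the largest change are named, with SREBF2, SCAP and INSIG1, and other list genes were named after their values were seen. Some genes that the rule names are not reported here. The fits were tested on simulated data with known changes in 200 genes of 5 FPKM or more. In the real data 8368 genes were called, so the adjustment of p-values was stricter in the simulation. The shares found there do not carry over directly to the real data. The main test called 10 of 50 genes changed 1.25-fold, 46 of 50 changed 1.5-fold and 49 of 50 changed 2-fold. Voom called 37 of 49 at 1.25-fold, and each test called 8 unchanged genes. A gene that was not called may therefore still have a small change. Libraries of a group differed by more than sampling noise, with a chi-square of 2.30 to 3.78 per gene.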

Additional observations from a re-analysis of the deposited data

How the results depend on the processing

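Of the 10 genes, 8 to 10 were called as higher under the alternatives and none changed direction. The 8 genes other than ACACA and ELOVL6 were called under every alternative. The count at 2-fold was 3 with a pseudocount of 0.1 and 3 with voom, because genes of low FPKM gain in fold change there, and leaving out a library left it at 1. In the AMPK and malonyl-CoA list voom called 8 genes, and leaving out a library gave 3 to 6. In the elongation list leaving out a library gave 4 to 5 called genes, and the cause was not tested. The other lists stayed within 1.5 times their counts. Among list genes that were not called, ACOT2 and NR1H2 turned to -0.0108 and -0.0111 with upper quartile scaling, and with a library left out ACOT2 had -0.0034 to 0.0585, NR1H2 -0.0054 to 0.0766 and MDH1 -0.0455 to 0.0167. Over all genes 8368 were called, 7390 to 7953 when a library was left out, and 9449 with voom. The ratio of ACACB to ACACA kept a log2 difference of 1.06 to 1.15, that of FADS2 to FADS1 had 0.05 to 0.12, and that of SREBF1 to SREBF2 had 0.08 to 0.14.

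Samples of different groups share only a replicate number. The deviations of same-numbered libraries from their group means correlated at -0.03, 0.00 and 0.09 for replicates 1, 2 and 3, and not every library correlated best with its own number. With the replicate number as a block 8032 genes were called, 9 of the 10 genes were called and 1 reached 2-fold. In the lists the block called 6 regulators of lipogenesis, 4 of AMPK and malonyl-CoA control, 8 of acetyl-CoA and NADPH supply and 5 of elongation, where HSD17B12 was not called (adjusted p = 0.076, limma), and it called ACSL4 (0.015). With 101 to 186 fragments per library, ELOVL6 had the widest interval of the 10 genes, and transcript levels say nothing of enzyme activity or lipid content.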

Other observations

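Set among all 14400 tested genes, a larger log2 fold change than that of SCD was found in 1.38% of genes, than that of ACACB in 3.21%, ACSL1 in 3.58% and FASN in 4.06%. For FADS1, FADS2 and ACLY the share was 11.9% to 12.2%, and for ELOVL6, SREBF1 and ACACA it was 28.3%, 35.2% and 35.9%.

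Several relatives of the 10 genes were too low to be tested. SCD5, the other human stearoyl-CoA desaturase, had 0 or 1 fragment in a DMSO library and 0 to 3 in a PD library, and FADS6 and the acyl-CoA synthetase gene ACSL6 had at most 1 fragment in any library. ACSL5 had 16 to 40 fragments per library, with a mean of 0.430 FPKM in DMSO and 0.276 in PD, and the fatty acid transporter CD36 had 1 to 4 fragments. Of the other long-chain acyl-CoA synthetases, ACSL3 rose by 0.16 on the log2 scale and ACSL4 (0.18) was not called, though it was with voom and without PD replicate 3. Exons of ACSL3, ACSL4, ACSL5 and ACSL6 overlap other annotated genes, and these values are less certain.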
